A study of Mus musculus with 4 samples.

Results

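Skeletal muscle contains fibroblasts, vascular cells, immune cells and other cells beside its myofibres, and a group of short, abundant messenger RNAs for cytosolic proteins is characteristic of these motile or matrix-producing cells. The group examined here was a list of 10 such genes: Vim, Lgals1, Tmsb4x, Tmsb10, S100a4, S100a6, S100a11, Anxa1, Anxa2 and Cnn2. The genes were chosen by name, with earlier results of these data known. Of these, 9 were measured among the 16472 genes of the table, and S100a4 was not analysed here. RNA of isolated mitochondria of skeletal muscle was compared with RNA of the remaining tissue, with 2 libraries in each group.

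All libraries came from untreated muscle of wild-type mice (WT). The first group is labelled as isolated mitochondria. The second carries the treatment label of tissue from which mitochondria were removed but is titled as total muscle, and the study's own legend also names total lysates, so whether whole or depleted tissue was the reference is not settled. It is called remaining tissue below. Strain, age, the muscle taken and the number of animals per library were not given in the labels, and nothing states that replicates were separate animals, so the p-values below measure the spread between these libraries, which may be technical. For heart, the methods of the study describe a protease-aided homogenization, differential centrifugation, and digitonin and RNase A treatment of the mitochondria before RNA was extracted. Whether muscle was handled in the same way was not stated.

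The proteins encoded by these genes belong to a few families. Vimentin is the intermediate filament protein of mesenchymal cells, whereas mature myofibres build their intermediate filaments mainly from desmin. Thymosins bind actin monomers, calponins bind actin filaments, S100 proteins and annexins are calcium-regulated proteins of the cytosol and of membrane surfaces, and galectin-1 is a small sugar-binding protein that is made on free ribosomes. None of these proteins is known for a role inside mitochondria. Myofibres also transcribe several of these genes at a low level, and bulk libraries do not tell which cells a read came from. Fewer cells of a type and less RNA per cell cannot be told apart either.

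The libraries were of very different composition. Genes of the mitochondrial genome held 95.3% and 94.1% of the reads of isolated mitochondria, beside an estimate of 22.3% and 20.5% for remaining tissue. Outside the mitochondrial genome and the 17 nuclear copies of its genes, isolated mitochondria held 100924 and 181152 reads (replicates 1 and 2), against an estimated 11988505 and 11967545 in remaining tissue. The deposited values are gene counts divided by a size factor, called normalized counts here, and 1 read was worth 9.049 and 5.059 normalized counts in the libraries of isolated mitochondria but only about 0.142 in those of remaining tissue. Across all genes, the replicates had a Pearson correlation of 0.983 in remaining tissue and 0.709 in isolated mitochondria. Fold changes below compare isolated mitochondria with remaining tissue on the log2(normalized count + 1) scale, ± SE, with limma's adjusted p over the 6916 genes with a mean of at least 20 normalized counts.

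Most of these transcripts had higher normalized counts in isolated mitochondria than in remaining tissue. In 8 of the 9 measured genes both libraries of isolated mitochondria lay above both libraries of remaining tissue, an order that 25.5% of the tested genes showed, and 18.8% of the genes with a mean of at least 5 in remaining tissue. Of the 8 genes that reached the minimum mean, 4 (Tmsb4x, Tmsb10, S100a11 and Anxa2) were significantly higher, against a background of 7.32% of all tested genes. In limma none was lower (0 also at an unadjusted p under 0.05, and 0 with edgeR), where 9.30% of all tested genes were. The other 4 tested genes (Vim, Lgals1, S100a6 and Anxa1) did not pass. The median log2 fold change of the 8 genes was 1.89, beside -0.44 for all tested genes. Since the list was chosen with earlier results of these data known, these counts and medians describe it and are no test.

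**Figure D1:**
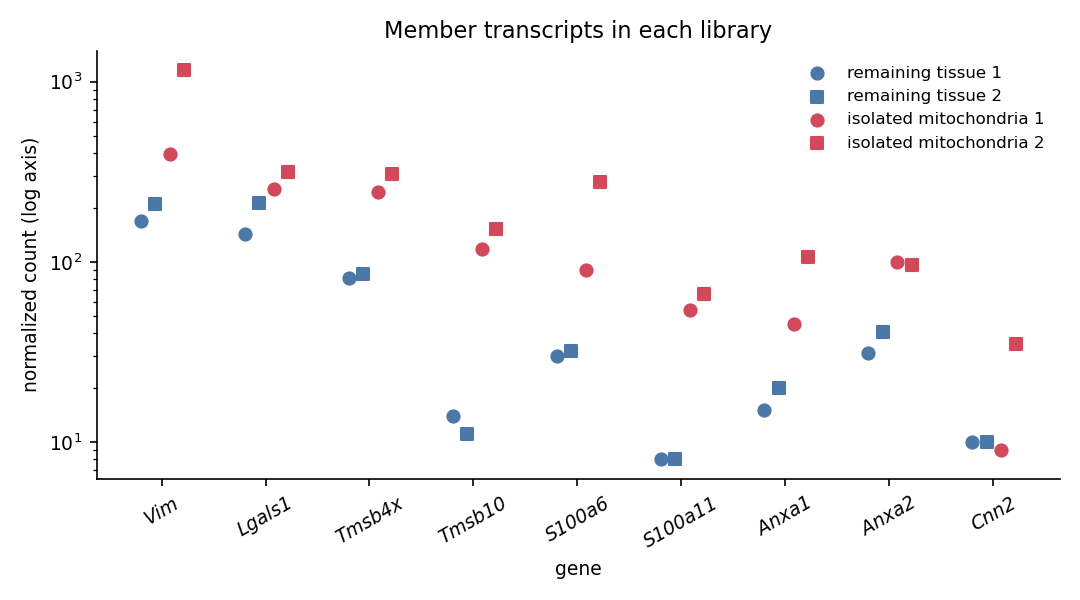
Normalized counts (log axis) of the 9 measured genes in each library, with 2 libraries of remaining tissue and 2 of isolated mitochondria per gene. Both libraries of isolated mitochondria lie above both of remaining tissue for every gene except Cnn2, whose values of 9 and 35 enclose the 10 and 10 of remaining tissue.

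The minimum mean bears on these counts. Tmsb10, S100a11 and Anxa1 had a mean under 20 in remaining tissue and were tested only because they were high in isolated mitochondria, so the counts are a description. With a minimum mean of 5 set on remaining tissue alone, chosen after the data were seen, all 9 genes were tested and the same 4 were higher, where 3.26% of 11151 genes were. With edgeR on the recovered and estimated reads, 7 of the 8 were higher (all but Lgals1), beside 16% of all tested genes (1106 of 6916), and with DESeq2 all 8, beside 20.3%.

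Vim (chr2:13573927-13582826 on GRCm38, as all positions below), which encodes vimentin, had 168 and 210 normalized counts in remaining tissue and 398 and 1159 in isolated mitochondria, the latter resting on 44 and 229 reads. The groups did not overlap, but the libraries of isolated mitochondria differed 2.91-fold from each other. The log2 fold change was 1.85 ± 0.57 (95% confidence interval 0.28 to 3.42, limma, adjusted p = 0.101), and 641 of 6862 tested nuclear genes (9.34%) had a larger one. Leaving out isolated mitochondria replicate 1 gave 2.62 (adjusted p = 0.0241) and leaving out replicate 2 gave 1.08 (adjusted p = 0.0648). Without remaining tissue replicate 1 or 2 the adjusted p was 0.0432 or 0.0107. In each of these fits the lone library of a group is assumed to vary like the other group.

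The fold change of desmin, vimentin's counterpart in myofibres, was negative. Des had 4563 and 4300 normalized counts in remaining tissue and 2081 and 2044 in isolated mitochondria, a fall of -1.10 ± 0.16 on the log2 scale (limma, adjusted p = 0.0248) that lost significance without remaining tissue replicate 1 (adjusted p = 0.256) or 2 (adjusted p = 0.203). Scaled to nuclear genes without copies it was -0.21 (adjusted p = 0.408), and with the upper quartile -0.83 (adjusted p = 0.0512). The ratio of Vim to Des reads within a library, which does not depend on scaling between libraries, was 0.0368 and 0.0488 in remaining tissue and 0.191 (95% interval 0.139 to 0.264) and 0.567 (0.482 to 0.666) in isolated mitochondria. Among the 5 other tested intermediate filament genes Des and Synm, which encodes the desmin partner synemin, were lower and none was higher with limma (0 at an unadjusted p under 0.05, 1 with edgeR). Synm changed by -2.43 (adjusted p = 0.0104). Nes, encoding nestin of progenitor cells and of junctional regions of the fibre, had 112 and 127 normalized counts in remaining tissue and 0 and 76 in isolated mitochondria (log2 fold change -3.78, adjusted p = 0.28). The value rests on the library at 0: it was -0.64 without isolated mitochondria replicate 1, -6.91 without replicate 2 and -1.09 with edgeR.

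Thymosin beta-4 (Tmsb4x) and thymosin beta-10 (Tmsb10) are the main actin monomer-binding peptides of non-muscle cells and are very alike. Their coding sequences are shown because reads of near-identical genes could be assigned to either. Each is read from GENCODE M21 transcripts on GRCm38, 5′ to 3′, and capitals mark the 40 positions at which the pair differs:
Tmsb4x: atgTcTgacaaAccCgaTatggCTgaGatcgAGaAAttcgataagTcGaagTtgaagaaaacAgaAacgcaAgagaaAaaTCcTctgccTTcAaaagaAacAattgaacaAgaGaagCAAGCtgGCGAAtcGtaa
Tmsb10: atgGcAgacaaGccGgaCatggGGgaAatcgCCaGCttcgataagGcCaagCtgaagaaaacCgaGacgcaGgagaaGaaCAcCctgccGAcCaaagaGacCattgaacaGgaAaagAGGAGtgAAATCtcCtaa
The coding sequences of 135 nt share 95 positions (70.4%), and their longest identical run is 10 nt, far below the read length of 75 nt. Reads of the coding part of one could thus hardly be counted for the other. Tmsb10 however has stretches of at least 75 nt and 95% identity in 6 other genes, mostly processed pseudogenes, which cover 413 nt (59.9%) of its transcript, and its count is uncertain for that reason. One of the pseudogenes, Gm3788, had 2 and 2 normalized counts in remaining tissue and 9 and 15 in isolated mitochondria. Tmsb4x had no such stretch.

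Both thymosins were significantly higher in isolated mitochondria. Tmsb4x (chrX:167207093-167209315) had 81 and 86 normalized counts in remaining tissue and 244 and 309 in isolated mitochondria (27 and 61 reads), with narrow spreads in both groups. Its log2 fold change was 1.71 ± 0.23 (limma, adjusted p = 0.0228), and it no longer passed without remaining tissue replicate 1 (adjusted p = 0.13) or 2 (adjusted p = 0.108).

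Tmsb10 had the largest fold change of the group. It lies at chr6:72957347-72958748 and had 14 and 11 normalized counts in remaining tissue and 118 and 152 in isolated mitochondria (13 and 30 reads), which gave a log2 fold change of 3.33 ± 0.32 (95% confidence interval 2.46 to 4.20, limma, adjusted p = 0.0144). Among tested nuclear genes, 3.29% had a larger fold change. It kept its significance without each library in turn (log2 fold change 3.15 to 3.51), as none of the other 3 significant genes did. The thymosins also moved unequally: within a library there were 5.77 (4.66 to 7.14) and 7.77 (6.14 to 9.83) reads of Tmsb4x per read of Tmsb10 in remaining tissue, and 2.08 (1.08 to 3.98) and 2.03 (1.32 to 3.14) in isolated mitochondria. These intervals do not overlap between the groups. They are 95% Wilson intervals and cover counting error only.

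Cnn2 (chr10:79988584-79996062), encoding calponin-2, an actin filament-binding protein of non-muscle and smooth muscle cells, was the exception. It had 10 and 10 normalized counts in remaining tissue and 9 and 35 in isolated mitochondria, the latter from 1 and 7 reads. The groups overlapped, and its mean was too low for the test. With a minimum mean of 5 in remaining tissue the log2 fold change was 0.79 (adjusted p = 0.576), so a difference was not detectable at this depth. Its relative Cnn3, calponin-3, had 24 and 27 normalized counts in remaining tissue and 63 and 81 in isolated mitochondria. It was higher by 1.45 ± 0.30 on the log2 scale (limma, adjusted p = 0.0477), but not without remaining tissue replicate 1 (adjusted p = 0.586) or 2 (adjusted p = 0.504), nor with the minimum set on remaining tissue (adjusted p = 0.0605). Cnn1, the calponin of smooth muscle, had 6 and 2 normalized counts in remaining tissue and 0 reads in both libraries of isolated mitochondria. Of 3 tested genes of the calponin family besides Cnn2, 1 was higher and 0 were lower (0 at an unadjusted p under 0.05, and 0 with edgeR).

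S100a6 (calcyclin) and S100a11 (calgizzarin) encode small calcium-binding proteins of fibroblasts, epithelia and other cells. S100a6 (chr3:90612882-90624181) had 30 and 32 normalized counts in remaining tissue and 90 and 278 in isolated mitochondria (10 and 55 reads). The libraries of isolated mitochondria differed 3.09-fold, and the log2 fold change of 2.32 ± 0.61 did not pass (limma, adjusted p = 0.0761). It passed without isolated mitochondria replicate 1 (3.12, adjusted p = 0.0134) or replicate 2 (1.51, adjusted p = 0.0135), where only the spread of remaining tissue is left.

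S100a11 (chr3:93520488-93526287) had 8 and 8 normalized counts in remaining tissue and 54 and 66 in isolated mitochondria, from 6 and 13 reads. Its libraries were close within each group and far apart between them, and it was higher by 2.75 ± 0.42 on the log2 scale (limma, adjusted p = 0.0279). The call was lost without remaining tissue replicate 1 (adjusted p = 0.214) or 2 (adjusted p = 0.212). A stretch of 297 nt (58.1%) of its transcript is near-identical to 2 processed pseudogenes, which makes its count uncertain.

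The S100 family did not move as a whole. S100a1, the S100 protein of striated muscle, had 68 and 60 normalized counts in remaining tissue and 63 and 56 in isolated mitochondria (log2 fold change -0.10 ± 0.25, limma, adjusted p = 0.784), a difference whose sign depended on the scaling. S100a10, which forms a complex with annexin A2, had 18 and 22 normalized counts in remaining tissue and 154 and 132 in isolated mitochondria. It was higher by 2.78 ± 0.28 (limma, adjusted p = 0.0145). Among the 4 S100 genes tested besides the listed ones, S100a10 alone was called higher with limma. At an unadjusted p under 0.05 2 of the 4 were higher, and 2 with edgeR. None of the 4 was lower (0 at an unadjusted p under 0.05, and 0 with edgeR). The ratio of S100a6 to S100a1 reads was 0.441 and 0.534 in remaining tissue and 1.43 (0.563 to 3.63) and 5 (2.65 to 9.45) in isolated mitochondria.

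Annexins A1 and A2 bind acidic phospholipids in the presence of calcium, and annexin A2 takes part in membrane repair and in the surface complex with S100a10. Anxa1 (chr19:20373428-20390944) had 15 and 20 normalized counts in remaining tissue and 45 and 106 in isolated mitochondria (5 and 21 reads). The groups did not overlap, but the log2 fold change of 1.94 ± 0.53 did not pass (limma, adjusted p = 0.0832). It was 2.55 without isolated mitochondria replicate 1 (adjusted p = 0.0303) and 1.33 without replicate 2 (adjusted p = 0.0642).

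Anxa2 (chr9:69453620-69491795) had 31 and 41 normalized counts in remaining tissue and 100 and 96 in isolated mitochondria (11 and 19 reads). It was the measured gene whose libraries of isolated mitochondria lay closest together, and it was higher by 1.43 ± 0.28 on the log2 scale (limma, adjusted p = 0.0427). This call was lost when any one library was left out (adjusted p = 0.0618 and 0.0562 without isolated mitochondria replicates 1 and 2, and 0.573 and 0.369 without remaining tissue replicates 1 and 2). Its exons overlap those of the antisense gene Gm16144 over 98 nt, and the strand setting of the counting was not stated.

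Other annexins were mixed. Of 6 tested, Anxa3 and Anxa4 were higher and none was lower with limma (1 at an unadjusted p under 0.05, and 0 with edgeR). Anxa3 was higher by 1.90 (adjusted p = 0.0426) and Anxa4 by 1.79 (adjusted p = 0.0489). Neither passed without a library of remaining tissue, with adjusted p of 0.417 and 0.353 for Anxa3 and 0.544 and 0.504 for Anxa4 without replicates 1 and 2. Both had means under 20 in remaining tissue (17 and 14.5) and were tested through isolated mitochondria, and with the minimum mean of 5 set on remaining tissue neither was called (adjusted p = 0.0607 and 0.0656). Anxa5, a phosphatidylserine-binding annexin, had 24 and 27 normalized counts in remaining tissue and 81 and 243 in isolated mitochondria (log2 fold change 2.42, adjusted p = 0.0677). Anxa6, an annexin that muscle fibres use in membrane repair, had 230 and 228 in remaining tissue and 90 and 197 in isolated mitochondria (-0.78, adjusted p = 0.262). The ratio of Anxa2 to Anxa6 reads was 0.135 and 0.18 in remaining tissue and 1.1 (0.479 to 2.53) and 0.487 (0.283 to 0.837) in isolated mitochondria.

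Lgals1 (chr15:78926725-78930465), which encodes galectin-1, moved least among the tested genes. It had 143 and 212 normalized counts in remaining tissue and 253 and 314 in isolated mitochondria (28 and 62 reads), 178 ± 48.8 against 284 ± 43.1 (SD, n = 2). The nearest libraries of the groups (212 and 253) were closer to each other than the libraries within either group. The log2 fold change was 0.69 ± 0.29 with a 95% confidence interval of -0.10 to 1.48 (limma, adjusted p = 0.167), and edgeR did not call it either (adjusted p = 0.0641). Of the 2 other galectin genes tested, none passed with limma (1 was higher at an unadjusted p under 0.05 and 1 with edgeR). Lgals3, galectin-3 of macrophages, had 2 and 3 normalized counts in remaining tissue and 0 and 10 in isolated mitochondria.

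**Figure D2:**
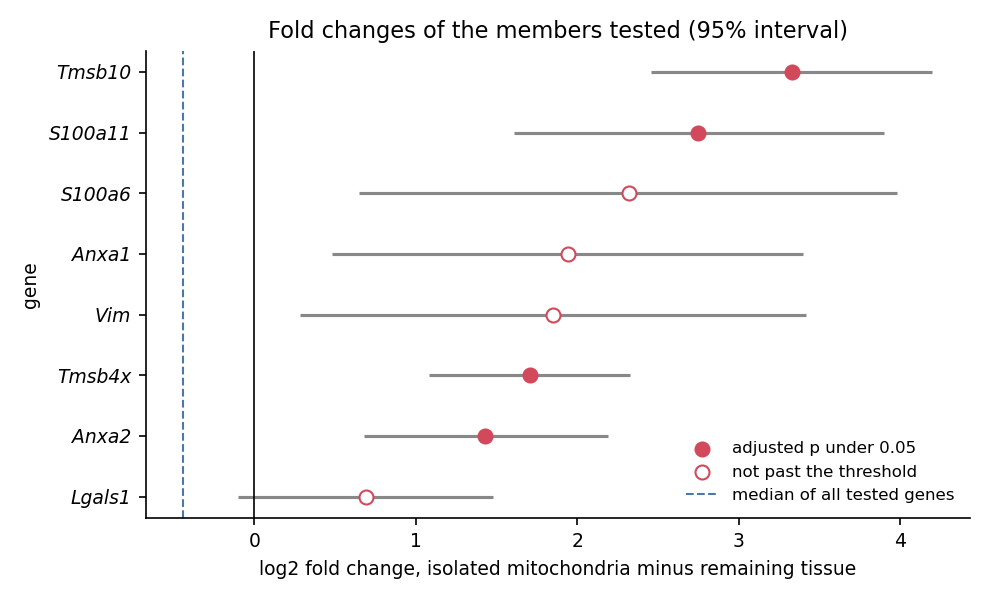
Log2 fold change of isolated mitochondria against remaining tissue with 95% confidence intervals from limma (2 libraries per group) for the 8 tested genes of the list, with filled points for an adjusted p under 0.05 and a dashed line at the median of all tested genes. Estimates run from 0.69 for Lgals1, whose interval alone includes 0, to 3.33 for Tmsb10.

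Per kilobase of annotated exons and per 1000000 nuclear reads, Lgals1 was highest in remaining tissue at 93.1 and 138, and Cnn2 lowest at 2.37 and 2.38. In between the order was Tmsb4x (34.7 and 36.9), Vim (20.8 and 26.1), S100a6 (12.9 and 13.8), S100a11 (9.14 and 9.16), Tmsb10 (6.47 and 5.11), Anxa2 (4.9 and 6.47) and Anxa1 (3.04 and 4.05). Only Tmsb10 and Anxa2 overlapped among these neighbours. In isolated mitochondria Lgals1 again stood first (307 and 379) on this scale and Cnn2 last (4.03 and 15.7). Tmsb4x (195 and 246) lay above S100a11 (116 and 140) and Tmsb10 (101 and 130) there, and the latter pair overlapped. Vim (91.9 and 267) and S100a6 (72.5 and 222) overlapped these genes and each other and could not be ordered among them. These orders depend on the length used. Annotated exons measured 1276 nt for Tmsb10 and 4743 nt for Vim, against longest transcripts of 690 and 2926 nt, whereas both were 511 nt for S100a11. An order by longest transcript could differ and was not computed.

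**Figure D3:**
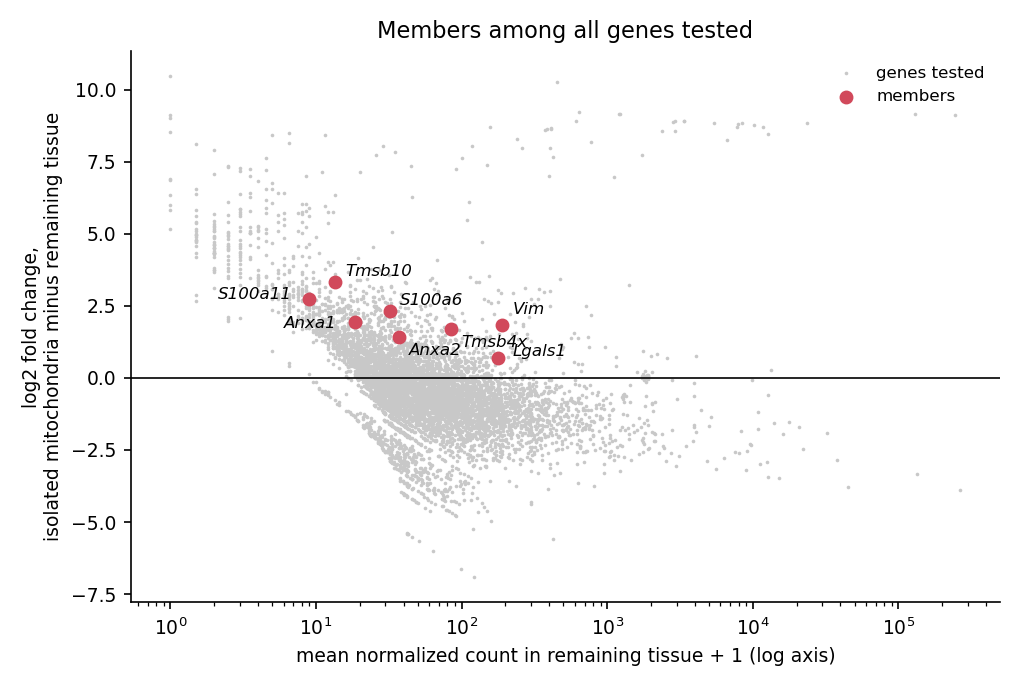
Log2 fold change of isolated mitochondria against remaining tissue (vertical axis) against the mean normalized count + 1 in remaining tissue (horizontal axis, log scale) for all tested genes, with the 8 tested genes of the list marked. The 8 genes lie above the median of all tested genes, -0.44, and the empty lower left corner is where the minimum mean of 20 removes genes.

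The 9 genes together took a larger share of nuclear reads in isolated mitochondria. They held 294 (95% Wilson interval 284 to 304) and 371 (360 to 382) of every 1000000 nuclear reads in remaining tissue, and 1437 (1221 to 1690) and 2744 (2513 to 2995) in isolated mitochondria. The means were 332 ± 54.5 and 2090 ± 924 (SD, n = 2), a 6.29-fold difference. Without Vim they were 221 and 1240. With 2 libraries per group no exact permutation test can give a two-sided p below 0.333, and none was run.

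The direction turned with the denominator. Of all assigned reads, the 9 genes held 257 ± 46.5 per 1000000 in remaining tissue and 8.73 ± 7.56 in isolated mitochondria, 29.5-fold more in remaining tissue. With limma on values scaled to all assigned reads, the 8 tested genes were all significantly lower, as were 96.8% of all tested genes. Scaled to genes outside the mitochondrial chromosome, which leaves in the nuclear copies, 7 of the 8 had a negative log2 fold change and only Tmsb10 a positive one (0.42). In these 2 scalings and the 16 other alternatives, every tested gene of the list lay above the median log2 fold change of all genes. Their median stood 1.91 to 2.86 above it. A scaling moves all genes by nearly the same amount, so the scalings are no test of a place above the median. The higher values described here are thus relative to other nuclear transcripts, and not to all RNA of the mitochondrial fraction.

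**Figure D4:**
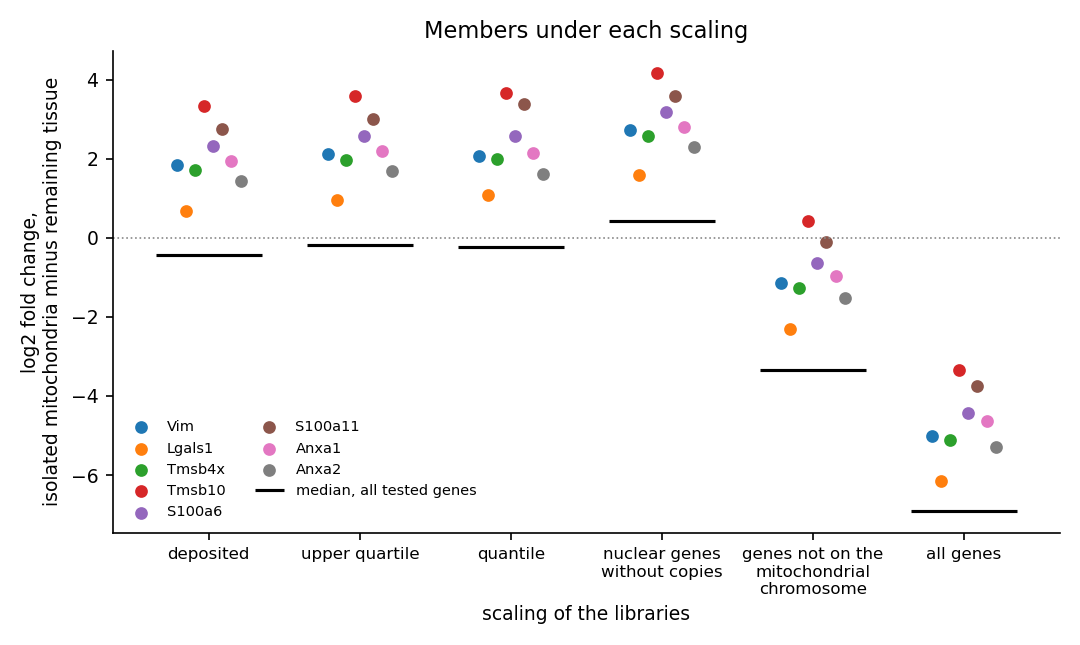
Log2 fold changes of the 8 tested genes under the deposited size factors and other scalings, with the median of all tested genes in each. The 8 genes move with the scaling, from 0.69 to 3.33 under the deposited factors to -6.15 to -3.35 scaled to all genes. The median of all tested genes moves by nearly as much, so the place of the 8 genes above it is no test.

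Replicates differed in these genes. In isolated mitochondria replicate 2 was above replicate 1 in 8 of the 9 genes (88.9%), compared with 55.9% of all tested genes, with Anxa2 the exception. In remaining tissue it was above in 6 of the 9 (66.7%), compared with 39.4%. The excess in isolated mitochondria was 2.36- to 3.89-fold for Vim, S100a6, Anxa1 and Cnn2 and 1.22- to 1.29-fold for Lgals1, Tmsb4x, Tmsb10 and S100a11.

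The transcripts of the list are mostly short. The longest transcripts of the 9 genes measured 511 to 2926 nt, beside a median of 3722 nt for tested nuclear genes, and their GC content was 43.6 to 58.7%, beside 49.7%. Tested nuclear genes with transcripts under 1000 nt had a median log2 fold change of 0.06 and 10% of 538 were called higher, whereas longer ones had a median of -0.49 and 6.29% of 6323 were called higher. With the minimum mean of 5 set on remaining tissue the medians were -0.57 and -0.72, with 3.12% of 1027 and 2.81% of 10070 called higher. The part of transcript length in these values was not tested. The nominal fragmentation of the mitochondrial samples was 1 min, and fragmentation cannot be told apart from the groups.

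Regulators of the actin cytoskeleton in non-muscle cells were examined beside the list. Of 20 tested, 3 were higher (Tpm4, Arpc1b and Cotl1) and 0 lower with limma (0 at an unadjusted p under 0.05, and 0 with edgeR), with a median log2 fold change of 0.75. Tpm4, a tropomyosin of the cytoskeleton, had 50 and 63 normalized counts in remaining tissue and 172 and 288 in isolated mitochondria. Its log2 fold change was 1.97 (adjusted p = 0.0371). Arpc1b, a subunit of the Arp2/3 complex, was higher by 2.57 (adjusted p = 0.0382) and Cotl1, coactosin-like 1, by 2.39 (adjusted p = 0.0488). All 3 lost the call without remaining tissue replicate 1 (adjusted p = 0.118, 0.0687 and 0.448), and Cotl1 also without each of the others (0.0586, 0.0714 and 0.284). Cotl1 had a mean of 9.5 in remaining tissue and was tested through isolated mitochondria. With the minimum mean of 5 set on remaining tissue, 0 of 21 were called in either direction, with adjusted p of 0.0559 for Tpm4, 0.0652 for Arpc1b and 0.0701 for Cotl1. With edgeR 10 of the 20 were higher. With limma, the median of the 20 was 1.29 and 0.40 without isolated mitochondria replicates 1 and 2, beside -0.28 and -0.43 for all tested genes. Without replicates 1 and 2 of remaining tissue it was 0.66 and 0.83, beside -0.44 and -0.43. Scaled to all genes their median was -5.97.

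Marker genes of the cells that could contribute such transcripts were read from the same fit. Of 10 fibroblast markers, 9 were tested and 8 were higher. Their median log2 fold change was 3.03, and 2.65 to 3.41 with 1 library left out. Their sum ranged from 3037 to 3186 normalized counts in remaining tissue and from 21926 to 34305 in isolated mitochondria. Gsn, encoding gelsolin, had 1385 and 1422 in remaining tissue and 11356 and 14945 in isolated mitochondria (3.21, limma, adjusted p = 0.0078). Gsn was the largest part of the fibroblast sum in each library, also where that sum is a denominator below. Of 8 macrophage markers, 7 were tested and 6 were higher. Their median was 2.72, and 2.40 to 2.86 with 1 library left out. Fewer were called without either library of remaining tissue. With the minimum mean of 5 set on remaining tissue, 7 of 10 fibroblast and 4 of 7 macrophage markers were higher. The macrophage sum was 213 to 241 in remaining tissue and 1084 to 1567 in isolated mitochondria. Cd74, the invariant chain, had the highest mean of the list (85 and 86 against 253 and 546, 2.11, adjusted p = 0.0466, and 0.0832 with that minimum).

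Endothelial markers did not share this direction. Of 8, 7 were tested, with 0 higher and 1 lower (Cdh5) in limma and a median of -1.32. None was higher at an unadjusted p under 0.05 or with edgeR, whereas 4 were lower at that p and 3 with edgeR. With the minimum mean of 5 set on remaining tissue, 2 of 8 were lower and 0 higher. The median of the 7 was -1.45 and -1.19 without isolated mitochondria replicates 1 and 2, beside -0.28 and -0.43 for all tested genes. The Cdh5 call was lost without either library of remaining tissue. The endothelial sum was 715 to 814 in remaining tissue and 246 to 261 in isolated mitochondria, where Cldn5 had no read. Fabp4, with the highest mean of the list, had 131 and 206 against 90 and 96 (-0.82, adjusted p = 0.141). Myofibre markers were lower, with 10 of 12 called and a median of -1.70, and their sum was 300550 to 313450 in remaining tissue and 59606 to 62619 in isolated mitochondria. Myh4, the myosin heavy chain of fast fibres, fell from 130847 and 139440 to 15166 and 11712 (-3.34, adjusted p = 0.0084). The label of remaining tissue as skeletal muscle thus held against these markers. The signs turned with the scaling here too: scaled to all genes, the medians were -3.86 for fibroblast, -4.07 for macrophage, -7.97 for endothelial and -8.60 for myofibre markers, beside -6.90 for all tested genes, and scaled to nuclear genes 3.92, 3.60, -0.45 and -0.81, beside 0.43.

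The other lists were small or mixed. Smooth muscle and pericyte markers (6 tested, sums of 617 to 697 and 450 to 480) held 1 higher gene, Cspg4. Cspg4 was not called without either library of remaining tissue. With the minimum mean of 5 set on remaining tissue its adjusted p was 0.0282 (limma). The median of the 6 was -0.48 and -0.44 without isolated mitochondria replicates 1 and 2, beside -0.28 and -0.43 for all tested genes. Rgs5 had 362 and 314 against 45 and 137 (-2.09, adjusted p = 0.0867). Tenocyte markers (3 tested, 311 to 432 and 225 to 470) held 1 higher gene, Scx, which was not called without either library of remaining tissue. Scx had a mean of 6 in remaining tissue and was tested through isolated mitochondria. With the minimum mean of 5 set on remaining tissue its adjusted p was 0.0413 (limma). Thbs4 had 212 and 151 against 54 and 268. Adipocyte markers (3 tested, 715 to 1161 and 407 to 505) held 1 lower gene, Car3. Its counts, 649 and 903 against 353 and 359, made up most of these sums, so the sums say little of the other markers. Whether its reads came from adipocytes cannot be told from bulk libraries. Car3 had a log2 fold change of -1.10 (limma, adjusted p = 0.0494). The call was lost when any 1 library was left out or with the minimum set on remaining tissue (adjusted p = 0.0635). Erythroid markers (2 tested, 166 to 177 and 40 to 108) held none, with Hba-a1 at 57 and 61 against 36 and 10. With 1 tested gene each, Schwann cells (Pmp22, 28 and 25 against 45 and 40) and satellite cells (Cdh15, 24 and 25 against 27 and 5) had no call. Of the neutrophil markers only Csf3r was measured, at 2 and 1 against 0 and 5.

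**Figure D5:**
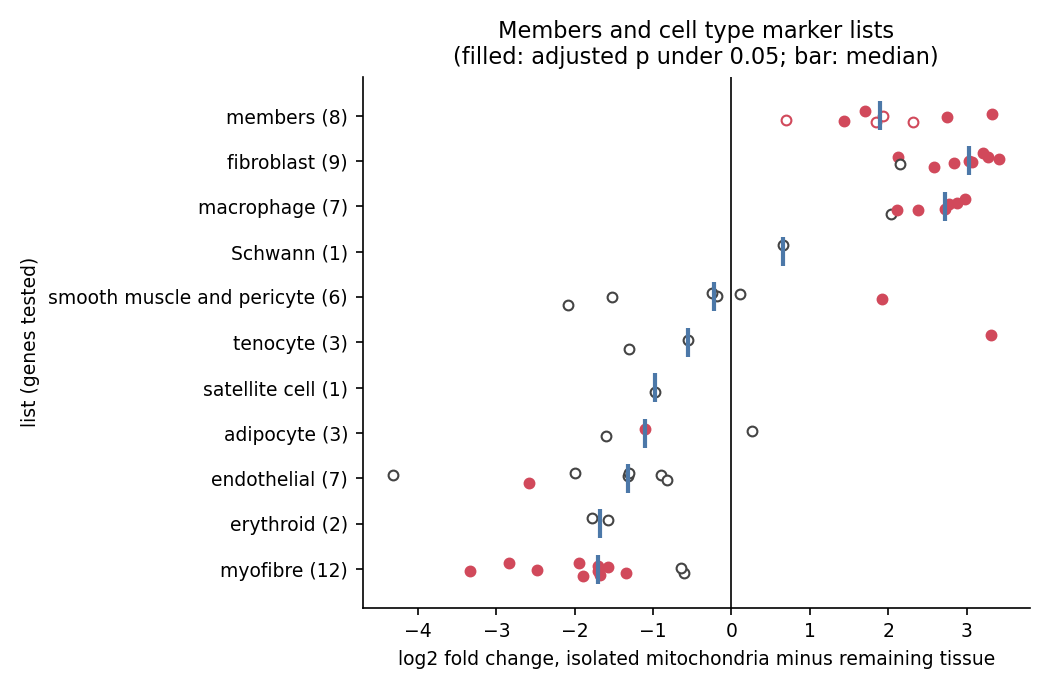
Log2 fold changes of isolated mitochondria against remaining tissue for tested marker genes by cell type, with the genes of the list (named members) in the top row, filled points for an adjusted p under 0.05 and bars for medians. Fibroblast and macrophage markers lie above 2 (medians 3.03 and 2.72), the listed genes have a median of 1.89, and endothelial and myofibre markers lie below 0 (medians -1.32 and -1.70).

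Within a library, the 9 genes were set against the summed reads of these markers. Per 100 reads of fibroblast markers there were 16.5 and 19.8 reads of the 9 genes in remaining tissue and 5.98 (5.06 to 7.07) and 7.33 (6.69 to 8.03) in isolated mitochondria. Per 100 reads of macrophage markers there were 235 and 261, against 121 and 160. The listed transcripts were thus fewer in isolated mitochondria relative to both marker sums. Relative to endothelial and myofibre markers they were more. Per 100 endothelial reads the values were 69.9 and 77.4 against 500 (336 to 743) and 1014 (757 to 1359), and per 100 myofibre reads 0.166 and 0.201 against 2.1 and 4.22. Fibroblast and macrophage markers thus moved with the listed genes, and their part in the result was not tested.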

How the data were processed

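Each library was prepared from 10 ng of RNA with a strand-preserving kit, and groups follow the labels. The authors trimmed and aligned reads to mm10, counted them over exons without multi-mapping reads, and used DESeq2; the submitters' processing notes list Trimmomatic 0.39, STAR 2.7.10a, featureCounts 2.0.2 and DESeq2 1.30.1. Strand setting and gene filter were not given in the sources used here. The deposited values are a signal: gene counts that the authors divided by a size factor and rounded (normalized counts). In isolated mitochondria, 100.0% of 10508 and 11660 values under 2000 were whole reads within 0.55 normalized counts, giving 42750571 and 35304935 reads. For remaining tissue, the median of ratios over 8993 genes gave 7.05 reads per normalized count and an estimated 15702506 and 15300370 reads. The median tested gene had 5 and 10 reads in isolated mitochondria. Reads carry no molecular identifiers and are not independent molecules, so 95% Wilson intervals cover counting error only.

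Genes with a mean of at least 20 were tested, two-sided, by limma 3.58.1 (R 4.3.3; linear models with a trended eBayes step) on log2(normalized count + 1), and p-values were adjusted over all tested genes by the Benjamini-Hochberg method (threshold 0.05). The pseudocount of 1 understates changes of low genes that have reads in every library. Where a library of isolated mitochondria is at 0, it can enlarge a fall, since 1 read there is worth 9.049 or 5.059 normalized counts. Nes, with 1 such library, was at -3.78, and at -4.28 and -2.14 with pseudocounts of 0.5 and 10. edgeR 4.0.16 (quasi-likelihood) and DESeq2 1.42.0 on reads, other minimums, pseudocounts and scalings, a replicate block and leaving out each library were alternatives. Annotation was GENCODE M21 on GRCm38 (16457 of 16472 identifiers found). Similar transcripts were searched with BLAST 2.17.0 (at least 75 nt, 95% identity). The fits were also run on simulated data in which both groups shared most of their composition, unlike these libraries. The outcome is not used here.

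Named genes were the 10 listed genes, 9 fixed relatives, other relatives where significant, and the gene with the highest mean of each marker list. Cdh5, Cldn5, Cspg4, Scx and Gm3788 were added after their values were seen. The listed genes and all lists were chosen with earlier results of these data known, so no test over a list was made.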

Additional observations from a re-analysis of the deposited data

How the results depend on the processing

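No gene of the list was called lower except under the scalings to all genes and to genes off the mitochondrial chromosome. Higher calls among the 8 tested genes of the list numbered 8 with DESeq2, 7 with edgeR, 8 scaled to nuclear genes without copies, 2 to 6 with 1 library left out, and 0 scaled to all genes or to genes off the mitochondrial chromosome, where 8 and 2 were lower. Among all tested genes, higher calls were 1404 with DESeq2, 1106 with edgeR, 283 at a minimum mean of 5, 38 scaled to all genes, 114 to genes off the mitochondrial chromosome, 1107 to nuclear genes, and 296 to 1724 with 1 library left out, against 506. Lower calls, 643 in the main test, were 374 without the trend, 399 at a minimum mean of 5, 1172 with that minimum in remaining tissue alone, 3026 without a minimum, 417 after quantile normalization, 6694, 5642 and 183 under the same 3 scalings, and 176 to 3198 with 1 library left out. Higher calls were 44% of all calls, and 58.7% with the upper quartile, 56.7% after quantile normalization, 85.8% scaled to nuclear genes, 1.98% to genes off the mitochondrial chromosome and 0.564% to all genes, where the median of all genes was -0.17, -0.24, 0.43, -3.34 and -6.90 against -0.44.

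Scaled to all genes, Vim was at -5.01, Lgals1 -6.15, Tmsb4x -5.12, Tmsb10 -3.35, S100a6 -4.42, S100a11 -3.75, Anxa1 -4.64 and Anxa2 -5.29. Scaled to genes off the mitochondrial chromosome, Vim was at -1.14, Lgals1 -2.30, Tmsb4x -1.28, S100a6 -0.63, S100a11 -0.10, Anxa1 -0.97 and Anxa2 -1.52. The shares per 1000000 reads were 257 and 8.73 of all reads, 327 and 155 of reads off the mitochondrial chromosome, and 221 and 1240 of nuclear reads without Vim. S100a1 turned positive with DESeq2 (0.16), edgeR (0.11), quantile normalization (0.07), the upper quartile (0.17) and nuclear scaling (0.78). Thbs4 did so with DESeq2 (0.12), edgeR (0.20), nuclear scaling (0.32) and in leaving out 1 library (-1.71 to 0.58), Anxa6 (0.11) and Fabp4 (0.07) with nuclear scaling, and Cdh15 in leaving out 1 library (-2.09 to 0.14). Apart from the scalings, whose denominators differ by construction, the cause was not tested.

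The replicate numbers were shared between the groups without a stated pairing, and the deviations of same-numbered libraries had a correlation of 0.141 over 6916 genes. With the replicate number as a block, 7 genes of the list were higher, and 630 genes were higher and 1144 lower in all. Depth limits the low genes most: at 1 to 13 reads in replicate 1 of isolated mitochondria, Cnn2, Anxa1, S100a11, S100a6, Anxa2 and Tmsb10 rest on few reads.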
